A study of Drosophila melanogaster with 36 samples.

Results

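Polycomb, trithorax and insulator genes encode chromatin proteins that keep genes off, keep them on, or separate neighbouring regulatory domains. The set described here held 36 listed genes, chosen by symbol and not by any measured value. Of these, 29 had at least 1 array probe set annotated to that gene alone, out of 11982 genes so measured in all. They gave 31 probe sets among the 18769 on the array that are no controls. The genes ph-p, ph-d, Su(z)2, pho, calypso, ash1 and E(Pc) were not analysed here, and 2 probe sets that Trl shares with another annotated gene were left out. By class, probe sets covered 15 of 21 Polycomb genes, 9 of 10 trithorax genes, 4 of 4 insulator genes, and the remodeller gene Mi-2. CTCF had 3 probe sets and every other gene had 1. A probe set was tested if its mean log2 signal over all 36 arrays was at or above the array design's median probe set (signal 259.7). This left 30 member probe sets of 9385 tested in all, and the only member probe set below it was probe set 3 of CTCF, with a mean signal of 122.9.

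The values come from wing imaginal discs, the larval epithelia that form the adult wing and notum, of Drosophila melanogaster. Larvae of 12 lines selected for wing shape in opposite directions, called high and low, were raised at 20 °C and dissected 6.2 h before pupariation. Discs were pooled at 100 per tube, and 5 µg of total RNA was labelled for each of 3 Affymetrix arrays per line. No line carries a transgene or a drug treatment in the labels, and each line stands for 1 outcome of selection. Line H (high) and line L (low) are the founders from a Massachusetts population (MA), after 20 generations of selection. Lines A1, B1, C1 and D1 (high) and A2, B2, C2 and D2 (low) were reselected for 25 generations from 4 hybrid populations of H and L that had been mixed for 34 generations, and were then inbred for 10. The last pair, CA high and CA low, was drawn from a California population. H and L are parents of the 8 reselected lines, so the 5 MA pairs are not fully independent.

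Polycomb proteins act in complexes: PRC2 methylates histone H3, PRC1 binds that mark and compacts or ubiquitinates chromatin, and PhoRC and PR-DUB recruit or modify them. Trithorax proteins oppose this silencing, some as histone methyltransferases and others as subunits of the Brahma chromatin remodelling complex, whose BAP form is defined by the protein Osa. Insulator proteins bind boundary elements and limit contact between enhancers and promoters. In wing discs these systems are known for holding the on or off state of homeotic and patterning genes through many cell divisions.

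Signals are on the linear scale of the deposited values, differences are log2 high minus low, and a difference is named as called where the limma adjusted p was below 0.05 over all 9385 tested probe sets. Every array was closer, by mean correlation, to arrays of its own line than to those of other lines. All 8 wing disc markers with a probe set, out of 10 listed, were above the filter, and their summed signal was 96310 to 118000 per MA line. One of them, pnr, a selector gene of the notum, was called lower over the MA pairs (-0.41, adjusted p = 0.0167), at 3344 ± 168.2 in high lines and 4427 ± 413.3 in low lines (SD, n = 5 lines). The pnr call was lost without H and L (-0.35, adjusted p = 0.0537) or without pair D (-0.42, 0.057). Hemocyte markers also moved with direction: 7 of 8 (87.5%) were called lower over the MA pairs, against 4.76% of all tested probe sets. Their sums were 4309 to 6615 in the 5 high lines and 8486 to 13760 in the 5 low lines. In the CA high and low lines the sums were 8816 and 14790. The count of hemocyte markers called over the MA pairs was 3 without A2 replicate 2 and 4 without B1 replicate 2, and those lost included PPO1, PPO2 and eater. That count was also 3 without H and L, without pair C or without pair D. It was 4 without pair B or without the intensity trend of the fit, and 6 without pair A. Median centring of the arrays left it at 7. The marker not called over the MA pairs, NimC1, was higher in H than in L (1.29, adjusted p = 4.78e-05). By pair, 6 of 8 were called lower between H and L, 2 in A, 2 in B, 7 in C, 4 in D and 2 in CA. In pair A, 1 was called higher. Shares over all tested probe sets for each pair are given with the members below. The sum of 3 tracheal markers was 22680 to 38610 in the MA high lines and 42220 to 47240 in the MA low lines, with 1 of 3, serp, called lower (-0.80, adjusted p = 0.0044). That sum is mostly verm and serp, with mean signals of 20760 and 15790, while btl had a mean signal of 314. Of the markers of fat body, salivary gland, muscle and myoblasts, and neurons, 2, 3, 3 and 1 genes were tested and 0 were called by limma over the MA pairs, with 1 of these 9 at an unadjusted p below 0.05. Within pair C, 2 of 2 fat body genes were called, 1 higher (Lsp2, 2.47, adjusted p = 0.00166) and 1 lower. The neuron gene elav was lower in C1 (-1.12, adjusted p = 0.00837), a call lost with only the 6 arrays of the pair (0.149). In CA, 1 of 2 fat body genes was called higher. The part of these markers in the results below was not tested. Whole discs were measured, so a lower signal can mean fewer cells of a type or less RNA per cell, and these cannot be told apart. In every pair the arrays of the high line have the lower sample numbers, so an order effect and the direction of selection cannot be told apart.

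Member genes were called about as often as other probe sets. Over the 5 MA pairs, tested on line means with the pair as a block, 4 of 30 member probe sets were called, all higher in high lines, which is 13.3% against 9.69% of all tested probe sets (4.92% higher and 4.76% lower). These were the Brahma complex subunits osa and mor, the insulator gene su(Hw) and the PRC2 accessory gene Jarid2. The median MA difference was 0.032 over the 30 member probe sets and 0.005 over all tested probe sets. In absolute size, the median member difference was 0.066 and that of all tested probe sets 0.102.

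Within single pairs the counts were also near the background. Between H and L, 9 members were called (6 higher and 3 lower in H), or 30% against 22.4% of all tested probe sets (10.9% higher and 11.6% lower). In pair A, 5 were called (3 higher, 2 lower), or 16.7% against 15.7% (7.76% higher, 7.97% lower). Pair B had 4, all higher, or 13.3% against 12.7% (6.3% higher, 6.37% lower). Pair C also had 4, all higher, or 13.3% against 14.2% (6.8% higher, 7.36% lower). Pair D had 4 (3 higher, 1 lower), or 13.3% against 10% (4.98% higher, 5.07% lower). The CA pair had 3, all lower in the high line, or 10% against 17% (7.97% higher, 9.05% lower). An F test for any difference among the 12 lines called 18 of 30, or 60%, against 64.5%. No class was called as a whole in any pair: of 15 Polycomb probe sets at most 5 were called, of 9 trithorax probe sets at most 3, and of 5 insulator probe sets at most 2. The map of pair differences shows the calls by gene.

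**Figure D1:**
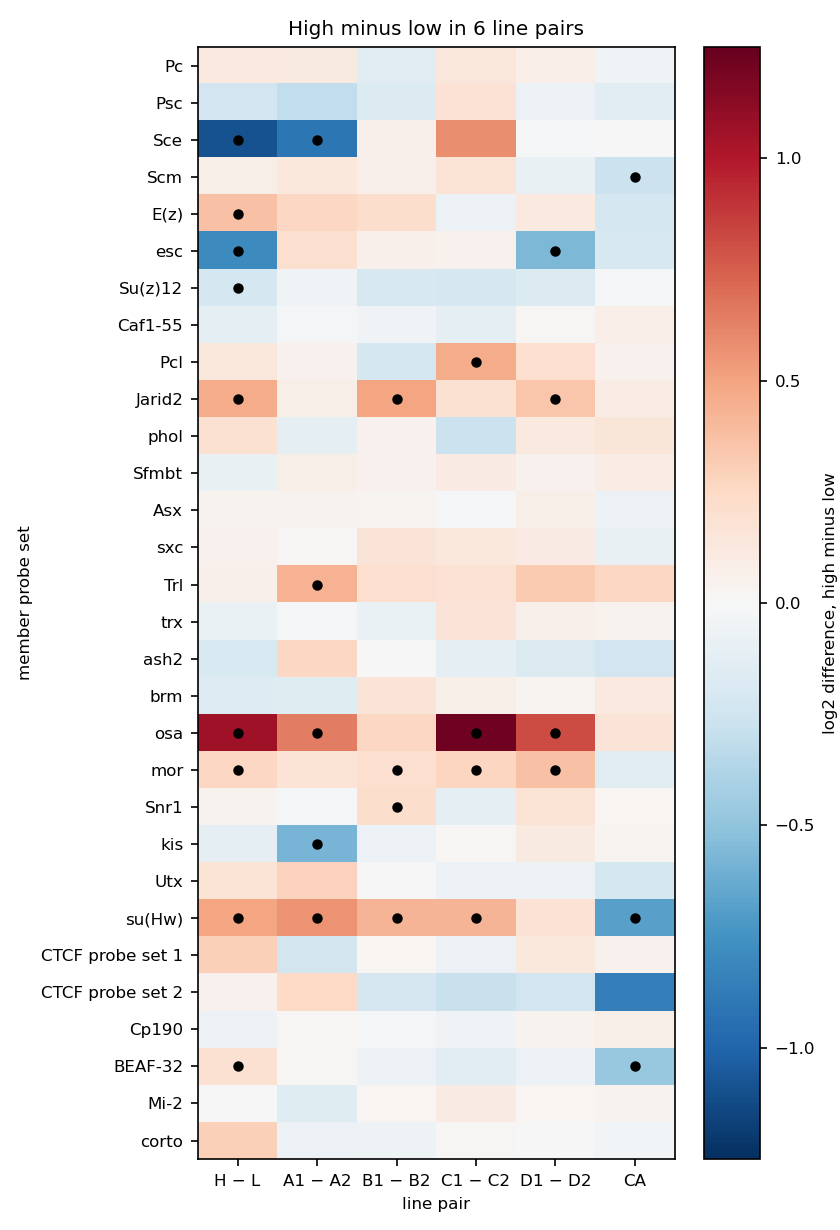
Log2 difference, high minus low, for the 30 tested member probe sets (rows, ordered by complex) in the 6 line pairs (columns). Red is higher in the high line, blue lower, and a dot marks an adjusted p below 0.05. The osa row is red in all 6 pairs and dotted in 4, su(Hw) is dotted in 5 with the opposite colour in CA, and Sce and esc are blue only in particular pairs.

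The BAP complex gene osa had the largest difference of any member over the MA pairs. Its product is the ARID-domain subunit that distinguishes BAP from the other form of the Brahma complex. In the 15 MA high arrays the osa signal was lowest at 4761, had a median of 6185 and reached 7687. In the 15 MA low arrays it was lowest at 2331, had a median of 3536 and reached 4540. The groups did not overlap, since all 15 high arrays lay above all 15 low arrays. These are 3 arrays from each of 5 lines per direction. Here and for the genes below, the share of all tested probe sets with such a separation, of arrays or of line means, is not given. Line means were 5516 in H against 2643 in L, 6542 in A1 against 4202 in A2, 5003 in B1 against 4181 in B2, 7038 in C1 against 3006 in C2, and 5931 in D1 against 3396 in D2. The mean MA difference was 0.80 ± 0.38 (SD over 5 pairs), 1.74-fold, with a limma adjusted p of 0.01.

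Osa differed in size among the pairs. It was called in H against L (1.06 ± 0.11 SE, adjusted p = 1.57e-08), A (0.64, 0.000109), C (1.22, 1.53e-09) and D (0.82, 3.39e-06). In pair B the difference was 0.26 (adjusted p = 0.145, 95% interval 0.03 to 0.49). The CA high arrays read 7693, 6957 and 6849 and the CA low arrays 6599, 6365 and 6234, so every CA array lay above every MA low array. The CA difference of 0.16 was not called (95% interval -0.07 to 0.39). The call over MA pairs was lost without the founders, where the difference over the 4 reselected pairs was 0.73 with an adjusted p of 0.0502.

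The gene mor encodes Moira, the scaffold subunit of the same complex. Its signal ran from 22649 over a median of 24790 to 27187 in the 15 MA high arrays, and from 18877 over 20830 to 26736 in the 15 MA low arrays. The groups overlapped through B2 replicate 3, the highest low array, while the other 2 arrays of B2 read 19787 and 21173. Each of the 5 high line means lay above all 5 low line means, at 25130 ± 1251 against 21070 ± 1256 (SD, n = 5 lines). The MA difference was 0.26 ± 0.08 (SD over 5 pairs, 1.2-fold, adjusted p = 0.011), with all 5 pairs higher. By pair, it was called in H against L (0.26), B (0.21), C (0.27) and D (0.37), and not in A (0.17, adjusted p = 0.102). The call in pair B was lost without B1 replicate 1 or 2, or without B2 replicate 1 or 2 (adjusted p up to 0.311). The difference in pair B was 0.12 without B2 replicate 1 and 0.34 without B2 replicate 3 (adjusted p = 8.21e-05).

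Between H and L, the mor difference was close in size to the shift that another scaling makes. When each array was centred on its median, the median of all probe sets between H and L moved from 0.036 to -0.201, and mor between H and L moved from 0.26 to 0.03. In pairs B, C and D the median of all probe sets moved by less than 0.1, and mor was then at 0.20, 0.29 and 0.37. Over the MA pairs that median moved from 0.005 to -0.044, and mor was at 0.21 (adjusted p = 0.113). Between H and L centring also ended the calls of su(Hw) (0.26), Jarid2 (0.23), E(z) (0.13) and BEAF-32, moved Su(z)12 to -0.46, and added calls lower in H for Psc, Caf1-55, Sfmbt, ash2, brm, kis and Cp190 (adjusted p from 0.0099 to 0.0478). In other pairs it ended the calls of mor in B and C, Snr1 in B (0.21), Trl in A (0.41), Jarid2 in D (0.35) and Scm in CA (-0.20), while these differences moved by less than 0.1 on the log2 scale. The same change left osa called over MA pairs at 0.75 (adjusted p = 0.00532).

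The member subunits brm and Snr1 of the Brahma complex gave no call over the MA pairs. The ATPase gene brm had pair differences from -0.16 to 0.16, none called, and an MA difference of -0.01 ± 0.14. Snr1, the SNF5-type core subunit, was called in pair B (0.22, adjusted p = 0.0365), with an MA difference of 0.06 ± 0.14 (adjusted p = 0.578). That call was lost without B1 replicate 1 or 2, or B2 replicate 1 or 3 (adjusted p up to 0.206). Of the subunits that are not members, Bap60, Bap170, polybromo and e(y)3 had -0.01, -0.14, 0.00 and -0.01 over the MA pairs, none called. Of the 8 subunits tested as members or among the other chromatin genes, 2 (25%) were called, against 9.69% of all tested probe sets. These 2 are osa and mor, given above, and the 8 were not a list of their own set beforehand. The share is thus no separate result. With each array centred on its median, mor was not called over the MA pairs (adjusted p = 0.113).

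**Figure D2:**
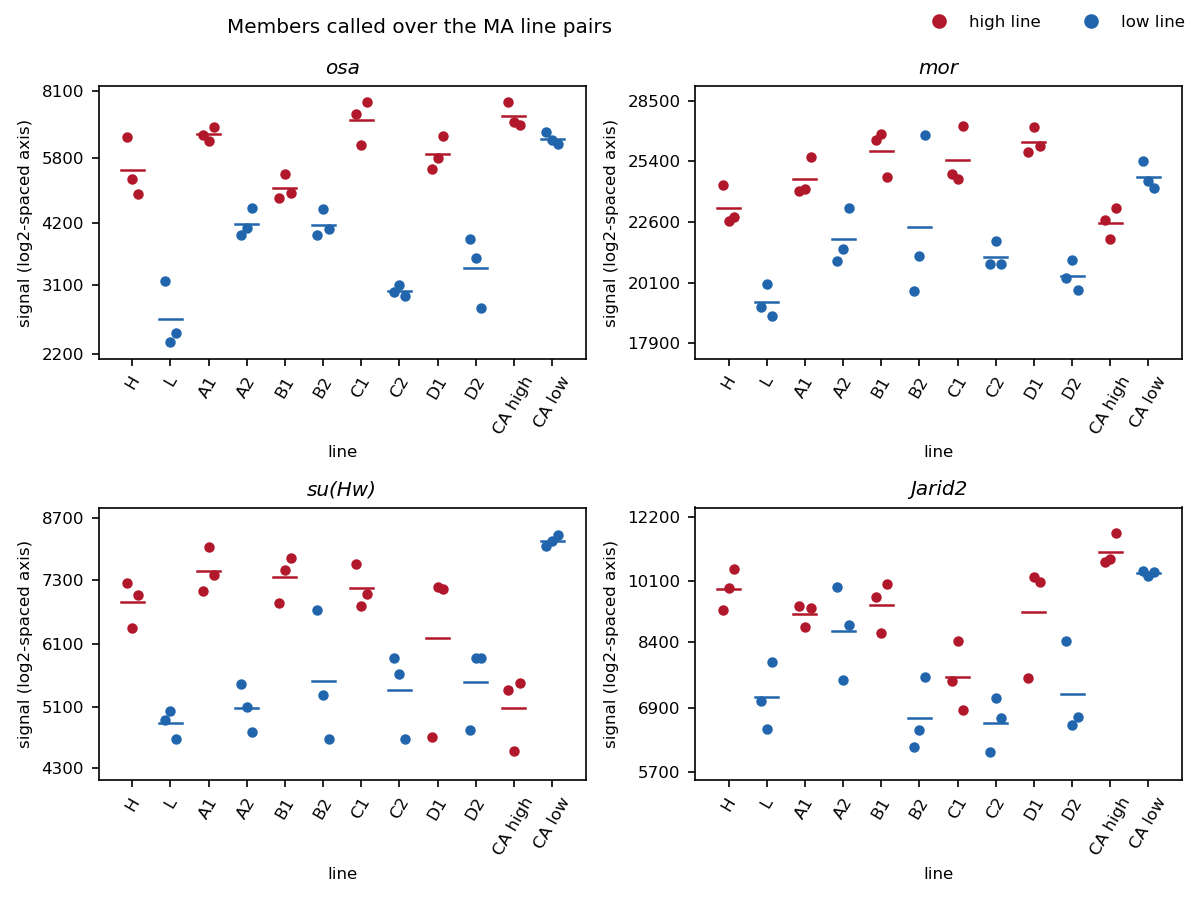
Signal on a log2-spaced axis in each of the 36 arrays by line for osa, mor, su(Hw) and Jarid2. Points are arrays (n = 3 per line), horizontal bars are line means of log2 signal, red is high and blue low. For osa all MA high arrays lie above all MA low arrays, and for su(Hw) the CA pair has the opposite order.

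The insulator gene su(Hw) encodes the zinc finger protein that binds the gypsy insulator. Its signal was 4691 at the lowest, 7119 at the median and 8007 at the highest in the 15 MA high arrays, and 4664, 5099 and 6711 in the 15 MA low arrays. Of the high arrays, 13 lay above every low array. The lowest high array was D1 replicate 1, at 4691 against 7158 and 7119 in the other arrays of D1. Line means were 7041 ± 466.5 in high lines and 5281 ± 287.3 in low lines (SD, n = 5 lines). All 5 high lines were above all 5 low lines.

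The su(Hw) difference over MA pairs was 0.41 ± 0.14 (SD over 5 pairs, 1.33-fold, limma adjusted p = 0.00643). It was called in H against L (0.49, adjusted p = 0.00423), A (0.56, 0.00198), B (0.42, 0.0207) and C (0.42, 0.0233). The D difference of 0.18 was not called (95% interval -0.08 to 0.44), and without D1 replicate 1 it was 0.38 (adjusted p = 0.0338). The B call was lost without B1 replicate 2 or 3 or B2 replicate 2 or 3 (adjusted p up to 0.163), and the C call without C1 replicate 1 or C2 replicate 3 (up to 0.168). The call over MA pairs held under each of 13 alternative settings and with each of 30 arrays left out in turn.

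In the CA pair su(Hw) had the opposite order. The CA high arrays read 5362, 4512 and 5459, and the CA low arrays 8025, 8146 and 8289. No CA high array reached a CA low array, and the CA low mean of 8153 was the highest of the 12 lines. The difference was -0.68 ± 0.13 (SE, adjusted p = 0.000157). The CA difference minus the mean MA difference was -1.09 (95% interval -1.37 to -0.81, adjusted p = 3.12e-07).

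Among the other insulator genes, BEAF-32, which binds boundary elements between closely spaced genes, was low in the CA high line. It and the members below that are given by array were chosen after their values were seen, except Jarid2 and Sce. Its 3 CA high arrays read 6419, 5879 and 5975, and the CA low arrays 8709, 7532 and 9106. The CA high mean of 6091 was the lowest of the 12 lines, and the other 11 lay between 8007 and 9304. The CA difference was -0.47 ± 0.07 (SE, adjusted p = 6.79e-06). Between H and L, BEAF-32 was 0.19 higher in H (adjusted p = 0.0428), but after centring each array the value was -0.04. That founder call was also lost without H replicate 1 or 2 or L replicate 2 or 3 (adjusted p up to 0.205).

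Cp190, a shared cofactor of several insulator proteins, had pair differences from -0.07 to 0.07, and none was called. For CTCF, the zinc finger insulator protein with a vertebrate homologue, the 3 probe sets differed in signal level. Probe set 1 had pair differences from -0.23 to 0.30 and probe set 2 from -0.86 to 0.25, with no call in either. The -0.86 of probe set 2 in CA rested on signals near the filter, with CA high arrays at 65.0, 253.7 and 283.3 and CA low arrays at 301.2, 301.3 and 305.9. Probe set 3 had line means from 77.53 to 201.2 and was not tested.

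Among PRC2 genes, Jarid2, an accessory subunit that helps target the complex, was higher in MA high lines. Its signal was 6876 at the lowest, 9299 at the median and 10463 at the highest in MA high arrays, and 6050, 7050 and 9910 in MA low arrays. The groups overlapped: C1 was lower than the other 4 high lines, and A2 was higher than the other 4 low lines. Line means were 9061 ± 859.7 against 7303 ± 852.2 (SD, n = 5 lines). The MA difference was 0.31 ± 0.18 (SD over 5 pairs, adjusted p = 0.0295). By pair it was called in H against L (0.46), B (0.49) and D (0.35), and not in A (0.07) or C (0.19).

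The Jarid2 call over MA pairs was near the threshold. It was lost without A2 replicate 2 (adjusted p = 0.0661), and under 5 of 13 other settings (adjusted p up to 0.113). The call in pair D was lost without D1 replicate 2 or 3 or D2 replicate 2 or 3 (up to 0.21). In D1 the arrays read 7565, 10214 and 10044, and in D2 8431, 6575 and 6719, so replicate 1 of each line lay toward the other line. In the CA pair, high and low means were 11020 and 10330, both above every MA line, and the difference of 0.09 was not called (95% interval -0.13 to 0.32).

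Of the other PRC2 genes, esc was called in 2 pairs, E(z), Su(z)12 and Pcl in 1 each and Caf1-55 in 0. The gene esc, whose WD-repeat protein the methyltransferase needs for activity, was low in 2 lines. Its arrays read 2200, 2145 and 1714 in H and 2343, 2120 and 1938 in D1. The line means of H and D1 were 2020 and 2134, and the other 10 lay between 3132 and 3931. No array of H or D1 reached any array of the other lines, the lowest of which read 2944 in D2. The difference was -0.80 ± 0.09 (SE, adjusted p = 5.45e-08) between H and L and -0.56 ± 0.09 (adjusted p = 4.88e-05) in pair D. Pairs A, B and C gave 0.20, 0.06 and 0.05, and the MA difference of -0.21 ± 0.44 was not called.

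E(z), the histone methyltransferase of PRC2, was called between H and L only, at 0.37 (adjusted p = 0.0291), with 0.26, 0.22, -0.07 and 0.12 in pairs A to D. That call was lost without H replicate 2 or L replicate 3 (adjusted p up to 0.185). Su(z)12, a core subunit, was lower in H than in L by a difference of -0.22 (adjusted p = 0.0461), and all 5 MA pairs were negative. Its MA difference was -0.17 ± 0.07 (SD over 5 pairs), with an adjusted p of 0.0592, and it was called without A1 replicate 2 (0.0337) or A2 replicate 3 (0.037). The call between H and L was lost when any array other than H replicate 1 was left out (adjusted p up to 0.217). Pcl, an accessory subunit, was higher in C1 than in C2 (0.46 ± 0.11, adjusted p = 0.0041), with arrays at 6907, 6028 and 7373 against 5298, 4510 and 4956. Caf1-55, a histone chaperone shared with other complexes, had pair differences from -0.12 to 0.08 and no call.

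Among PRC1 genes, Sce, which encodes the RING-type ubiquitin ligase for histone H2A, differed between the lines of 2 pairs and was not called over the MA pairs. Its arrays read 2490, 2374 and 2991 in H and 5550, 5449 and 5677 in L. In A1 they read 2570, 3218 and 2956, and in A2 5268, 5498 and 5536. In both of these pairs all high arrays lay below all low arrays, with differences of -1.09 ± 0.21 (SE, adjusted p = 0.000191) and -0.90 (0.00219).

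In pair C the order of Sce was the opposite. C1 read 5225, 5995 and 5752, and C2 4752, 2683 and 4248, a difference of 0.58 that was not called (adjusted p = 0.0584). Without C2 replicate 1 it was 0.74 (adjusted p = 0.0225). Pairs B (0.06), D (-0.02) and CA (0.00) gave no call, and the MA difference was -0.27 ± 0.70 (adjusted p = 0.528). Both lines of pair B were low, at 3480 and 3312, and both CA lines were high, at 5649 and 5654. In pair D the arrays of a line disagreed: replicate 1 read 2490 in D1 and 2593 in D2, and the other 4 arrays 4819 to 4947.

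**Figure D3:**
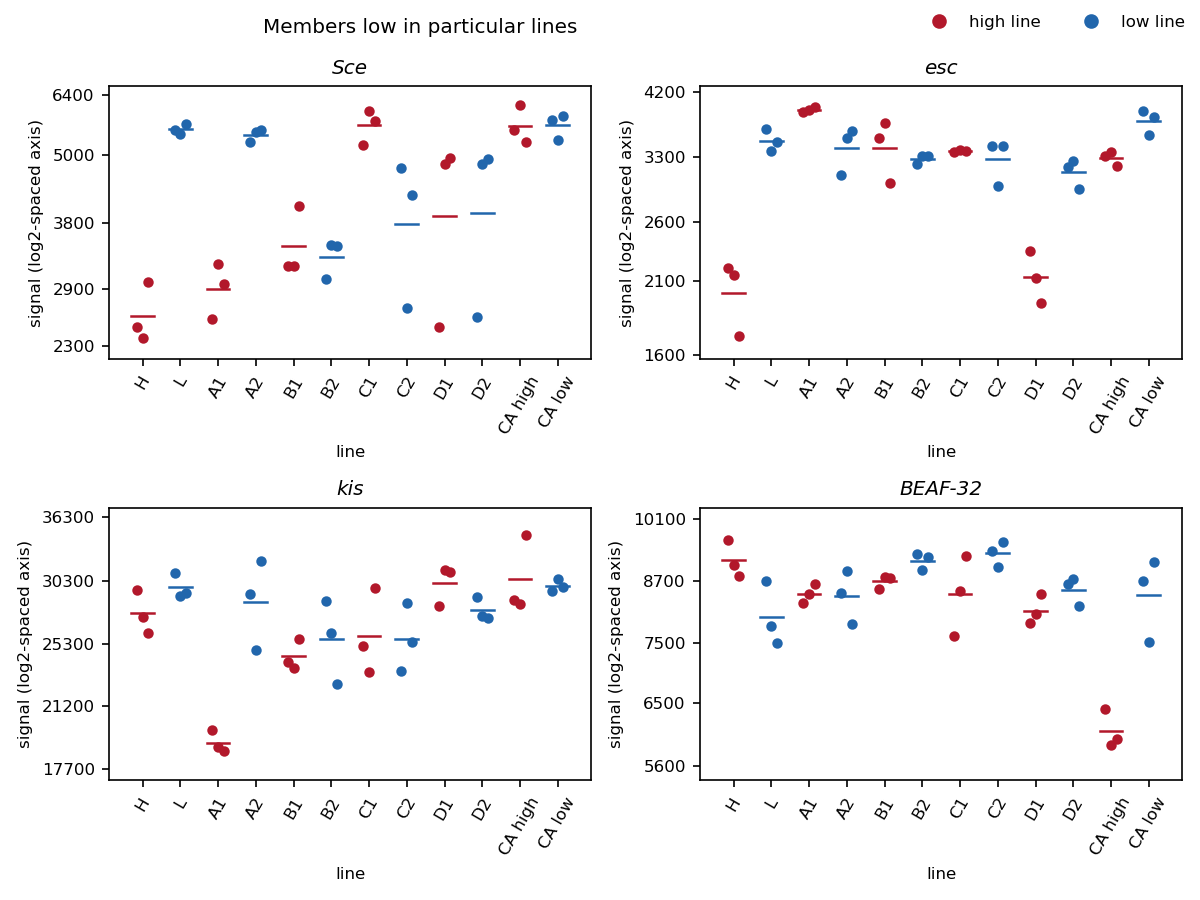
Signal on a log2-spaced axis in each of the 36 arrays by line for Sce, esc, kis and BEAF-32. Points are arrays (n = 3 per line), horizontal bars are line means of log2 signal, red is high and blue low. The low lines of esc are H and D1, that of kis is A1 and that of BEAF-32 is the CA high line, while Sce takes low and high values in lines of either direction and within D1 and D2.

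The remaining PRC1 genes gave 1 call in the 6 pairs. Pc, whose chromodomain binds the PRC2 mark, had pair differences from -0.13 to 0.14 and none was called. Psc, a core subunit, had -0.31 to 0.18, and the -0.31 of pair A had an adjusted p of 0.0507. Without A2 replicate 1 that difference was -0.39 (adjusted p = 0.0294). Scm, which links PRC1 to PRC2, was lower in the CA high line (-0.27, adjusted p = 0.0399), with means of 8479 and 10240. This call was lost when any of the 6 CA arrays was left out (adjusted p up to 0.139).

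The Polycomb genes outside PRC1 and PRC2 gave no call in any pair, nor did Mi-2. The PhoRC genes phol, a DNA-binding protein, and Sfmbt, its partner in the complex, had pair differences from -0.27 to 0.19 and from -0.09 to 0.10. Asx, the partner of the histone deubiquitinase, had -0.07 to 0.07. The O-GlcNAc transferase gene sxc had -0.09 to 0.16, and corto, a chromatin cofactor of both Polycomb and trithorax proteins, -0.07 to 0.30. Mi-2, the ATPase of the NuRD remodelling complex, had -0.15 to 0.10, and the -0.15 of pair A was called (-0.19, adjusted p = 0.0454) only without A2 replicate 2. None of these 6 genes was called over the MA pairs.

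Among trithorax genes outside the Brahma complex, kis was low in a single line. It encodes a chromatin remodeller of the CHD family. Its A1 arrays read 19802, 18889 and 18644, below all other 33 arrays, and its A1 mean of 19110 compared with 24430 to 30520 in the other 11 lines. The difference in pair A was -0.58 ± 0.09 (SE, adjusted p = 2.41e-05). The other pairs lay between -0.11 and 0.11.

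Trl, which encodes the GAGA factor that binds many Polycomb response elements, had a positive difference in all 6 pairs. The values were 0.06 between H and L, 0.43 in A, 0.21 in B, 0.18 in C, 0.33 in D and 0.26 in CA. Of these, A was called (adjusted p = 0.0109), and that call was lost without A1 replicate 2 or A2 replicate 1 or 3 (adjusted p up to 0.0845). Without B2 replicate 2 the difference in pair B was 0.36 (adjusted p = 0.0473). Over the MA pairs the difference was 0.24 ± 0.14 (SD over 5 pairs, adjusted p = 0.0576). It fell on the other side of the threshold without L replicate 2 (0.0427), A2 replicate 3 (0.0481), B2 replicate 2 (0.0437), C1 replicate 3 (0.0464) or C2 replicate 2 (0.0469).

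The histone-modifying trithorax members had no call in any pair. The methyltransferase gene trx had pair differences from -0.08 to 0.16, and Utx, the demethylase that removes the PRC2 mark, from -0.22 to 0.29. The gene ash2, a subunit of the methyltransferase complexes, ranged from -0.24 to 0.26. The last of these, in pair A, was 0.38 without A2 replicate 1 (adjusted p = 0.0112), and the -0.24 of CA was -0.36 without CA high replicate 1 (adjusted p = 0.0191). In all, 15 genes with 16 tested probe sets had no call in any of the 6 pairs by limma, with 7 of their 96 differences at an unadjusted p below 0.05, and 29 of the 180 member differences were called (20 higher and 9 lower), or 16.1% against 15.3% of all 56310 such differences. With each array centred on its median, 10 were called higher and 15 lower.

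The CA and MA differences were compared directly in the model of 36 arrays. Of 30 members, 6 were called, all with the CA difference below the mean MA difference, or 20% against 22.8% of all tested probe sets (10.8% higher, 11.9% lower). The error used here is the spread between arrays and leaves out that between MA pairs. For su(Hw), given above, the 2 differences were both called and opposite in sign. For osa the value was -0.64 (95% interval -0.89 to -0.39, adjusted p = 0.000218), with an MA difference of 0.80 and a CA difference of 0.16. For mor it was -0.38 (-0.54 to -0.23, 0.000256), with 0.26 in MA and -0.13 in CA.

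The other 3 were BEAF-32 at -0.45 (95% interval -0.61 to -0.30, adjusted p = 3.53e-05), E(z) at -0.40 (-0.68 to -0.13, 0.0289) and Scm at -0.34 (-0.55 to -0.13, 0.0141). E(z) had its highest line mean in CA low, at 3296, against 2831 in CA high and 2176 to 2815 in the MA lines. The E(z) call was lost without CA high replicate 3 or any CA low array (adjusted p up to 0.114), and the Scm call without CA high replicate 2 (0.0545). Jarid2 gave -0.22 (-0.47 to 0.03), which was not called. Median centring of the arrays moved the median of all probe sets in this comparison from -0.036 to 0.086, and 3 of the 6 were then still called, namely osa, su(Hw) and BEAF-32.

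**Figure D4:**
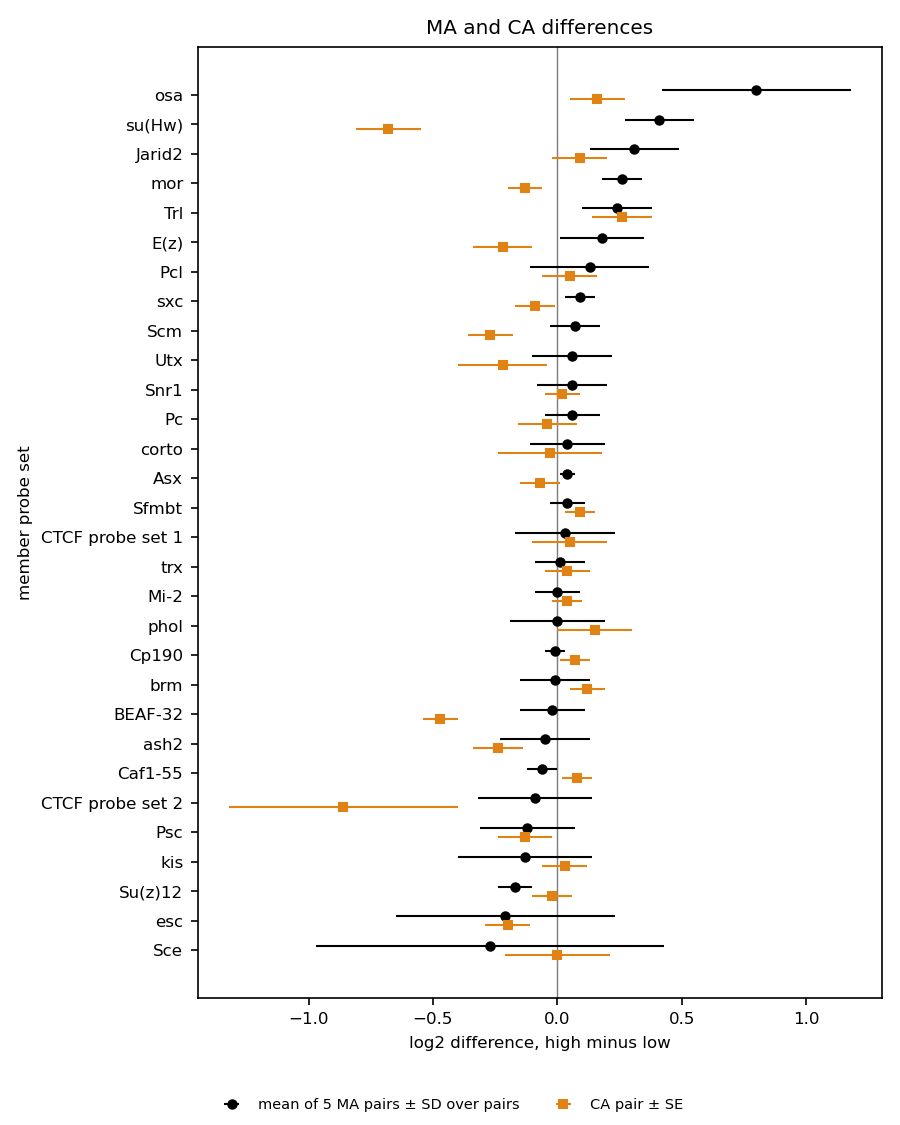
Log2 difference, high minus low, for the 30 tested member probe sets in MA (black circles, mean of 5 pairs ± SD over pairs) and CA (orange squares, ± SE from the model). Members are sorted by the MA difference, and osa, su(Hw), Jarid2 and mor, the 4 called over MA pairs, are at the top with CA values of 0.16, -0.68, 0.09 and -0.13.

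Other chromatin genes of the same systems were taken from a list of 56 that are not members. Of these, 45 genes with 75 probe sets were tested, and 17 probe sets (22.7%, against 9.69% of all tested probe sets) were called over the MA pairs, 10 higher and 7 lower, with a median difference of 0.016. Of the 17, 10 belonged to mod(mdg4), a trans-spliced insulator gene with 22 tested probe sets, of which 7 were higher and 3 lower. The rest were psq, escl and skd (higher) and kto, HDAC1, dwg and insv (lower). The count was 11 without B1 replicate 3. The share of 22.7% counts mod(mdg4) many times. Probe set 22 of mod(mdg4) had the largest called MA difference of the list, 2.39 ± 0.60 (SD over 5 pairs, adjusted p = 0.000991). Its means were 932.6 in MA high lines and 209.5 in MA low lines, the latter below the filter level. All 5 MA pairs were called, but those of H and L, B and D were lost without some single arrays (adjusted p up to 0.166). The CA difference of -0.41 was not called.

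The gene psq encodes a BTB protein that, like Trl, binds GAGA sequences. Its line means were 7752 in H against 3114 in L, 5923 in A1 against 4882 in A2, 5438 in B1 against 3798 in B2, 6247 in C1 against 3090 in C2, and 7003 in D1 against 4314 in D2. Every MA high line lay above every MA low line. The MA difference was 0.77 ± 0.41 (SD over 5 pairs, adjusted p = 0.0148). In CA the means were 4038 and 4483, and the CA difference minus the MA mean was -0.92.

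A list of 22 Polycomb target genes gave 9 tested genes with 12 probe sets, since most homeotic genes were below the filter or had no probe set. Over the MA pairs 3 probe sets were called, all higher, or 25% against 9.69% of all tested probe sets (4.92% higher), with a median of 0.133. They were the retinal determination gene eya (0.53 ± 0.32, SD over 5 pairs, adjusted p = 0.0321), the homeotic gene Antp (0.35 ± 0.23, 0.0478) and inv, the paralogue of engrailed (0.27 ± 0.09, 0.0272). The eya call was lost under 5 of 13 alternative settings and without 2 of 30 arrays in turn (adjusted p up to 0.1). For inv the call was lost under 6 of 13 settings, median centring among them, and without 1 of 30 arrays (up to 0.14). The Antp call was lost under 8 of 13 alternative settings and without 16 of 30 arrays in turn (adjusted p up to 0.142). The other probe set of Antp gave -0.10 and was not called. The count was 1 without A2 replicate 1 or D1 replicate 3. In pair B, eyg was lower in the high line (-1.09, adjusted p = 2.11e-06). In the CA pair eya was lower in the high line (-0.88, adjusted p = 0.0113), a call lost without CA high replicate 1 or CA low replicate 2 (adjusted p up to 0.0733). For CA against MA, 4 of the 12 probe sets were called, all with the CA difference below the MA mean, or 33.3% against 22.8% of all tested probe sets (11.9% lower).

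The genomic neighbours of the called members were looked at through gene order in the Release 6 gene table. Among the 20 nearest measured genes of each, the number called over the MA pairs was 1 for osa, 5 for mor, 2 for su(Hw) and 1 for Jarid2, where 9.97% of 7195 measured genes were called. Beside mor, the adjacent gene Hel89B was higher (0.30, adjusted p = 0.0207) and Rbf2 on the other side was not called (0.22, 0.0576). The genes adjacent to osa, CG31249 and pasi1, had -0.01 and 0.13, and those adjacent to su(Hw), IFT54 and Set8, had 0.16 and 0.01, none called. The members trx and su(Hw) lie among each other's 20 nearest measured genes, as do phol and Jarid2, and in each case only the latter was called over the MA pairs. The largest counts of called neighbours were at members that were not called themselves, with 8 at sxc and 6 at Trl.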

How the data were processed

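Each sample was 1 Affymetrix array. The deposited values are linear intensity signals from MAS5, per the submitters' processing notes, with no program version in the sources used here. The deposited values had a trimmed mean of 2496.8 to 2498.6 on every array, and array medians from 239.7 to 430.1. Signals were taken to log2 with no pseudocount, 183 control probe sets were left out, and probe sets below the median mean signal of 259.7 were not tested. Symbols came from the platform annotation. In R 4.3.3, limma 3.58.1 (lmFit, eBayes with trend) fitted 1 mean per line over 36 arrays (24 residual degrees of freedom), contrasts between the lines of a pair, an F test over lines, and, for the MA difference, the 10 MA line means with pair as a block. P-values are two-sided and Benjamini-Hochberg adjusted over 9385 probe sets. The script was tested on simulated data. Whether the arrays of a line represent separate cultures is not in the labels, so the p-values cover the spread between these samples, which may be technical. The number of arrays limits the precision.

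Members given line by line are those called over the MA pairs, in 3 or more pairs, or in any pair or in CA against MA with a difference of at least 1; list genes were named by the call over MA pairs or such a pair difference, at most 4 per list. The members and lists were chosen with earlier results of these data known. Alternatives were median centring, quantile normalization, a pseudocount, other filters, no trend, a replicate block, fewer arrays, and leaving out a pair or an array.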

Additional observations from a re-analysis of the deposited data

Results flagged for a closer look

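In 4 of the 60 groups of 5 MA lines, the mean log2 signal of 1 line stood apart from the other 4 by Dixon's criterion at 95%, which chance alone meets in about 1 group in 20. Pcl was high in line B2 among the low lines, at 12.5 against 12.20 to 12.26. Jarid2 was low in line C1 among the high lines, at 12.89 against 13.16 to 13.27. The ash2 level was low in line A2 among the low lines, at 12.58 against 12.76 to 12.83. Probe set 1 of CTCF was low in line H among the high lines, at 11.38 against 11.48 to 11.51.

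The CA difference and the mean MA difference differed by the limma contrast for 6 of 30 members. This share of 20% was not above the 22.8% of all tested probe sets. The values, CA minus MA on the log2 scale, were -1.09 for su(Hw), -0.64 for osa, -0.45 for BEAF-32, -0.40 for E(z), -0.38 for mor and -0.34 for Scm. Median centring ended the calls of E(z), mor and Scm. The error of this contrast leaves out the spread between MA pairs.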

How the results depend on the processing

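Of 39 called member differences (the 6 pairs, MA, and CA against MA), 20 stayed called under every alternative other than leaving out an array and 19 also with any array left out; 20 of 201 uncalled ones were called under at least 1 alternative. Centring each array on its median, with calls of members against the main count, gave 2 against 4 in pair B, 2 against 4 over MA pairs, 3 against 6 for CA against MA, and 28 against 18 for the F test. Over all tested probe sets, F test calls also rose under centring, from 6051 to 7288, and H against L calls from 2106 to 2615. Those over MA pairs fell from 909 to 657, and those for CA against MA from 2136 to 1470. Between H and L, centring gave 11 member calls, 1 higher and 10 lower, in place of 6 and 3, and turned BEAF-32 to -0.042. There 11.2% of the calls over all tested probe sets were higher, against 48.4% in the main scaling. The share of higher calls moved to 62.7% from 46.8% in CA, to 68.2% from 47.6% for CA against MA, and to 40.8% from 50.8% over MA pairs. Pair B also gave 2 calls without the filter, 2 without the intensity trend, and 1 from its own 6 arrays. Over MA pairs 2 members were called without H and L. With 1 array left out, counts ran from 6 to 8 (H against L), 4 to 6 (A), 1 to 4 (B), 3 to 5 (C), 3 to 5 (D), 2 to 3 (CA), 3 to 6 (MA), 5 to 6 (CA against MA) and 16 to 21 (F test). Pair B fell to 2 without B1 replicate 1, B2 replicate 1 or B2 replicate 3, and to 1 without B1 replicate 2. All tested probe sets called fell under centring from 1476 to 729 (A), 1189 to 713 (B), 1329 to 745 (C), 943 to 529 (D) and 1597 to 969 (CA). With only a pair's own 6 arrays they fell to 711 (B) and 671 (C), and without C2 replicate 3 to 837 (C). Over MA pairs they fell from 909 to 369 without H and L, 580 without pair A and 478 without pair D. The other chromatin genes fell from 17 calls to between 8 and 11 and the target genes from 3 to between 0 and 1 under centring or without some pairs. Fewer lines enter when a pair is left out; otherwise the cause was not tested. Between same-numbered arrays of a pair, r ran from -0.064 to 0.188, with 3 of 18 over 0.1. Of 18 high arrays, 9 were closest to their own number. What the replicate numbers stand for is not in the labels, and a shared effect of equal numbers was not tested. With the replicate block, 8 (H against L), 6 (A), 4 (B), 5 (C), 5 (D), 3 (CA), 4 (MA), 6 (CA against MA) and 19 (F test) members were called, and Sce in pair C and Trl in pair D were called (adjusted p = 0.04 and 0.0352).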

Other observations

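The esc paralogue escl, which can replace Esc in PRC2, was not a member and lies among the 20 nearest measured genes of esc. Its line means were higher in the high line of all 5 MA pairs, from 1696 against 1451 in B to 3100 against 2147 in H and L. The MA difference was 0.47 (adjusted p = 0.0359), and it was lost under 5 of 13 alternative settings and without 3 of 30 arrays in turn (adjusted p up to 0.135). In H, where esc was at 2020, escl was at 3100, and in D1, where esc was at 2134, escl was at 1855. In CA the means were 2694 in the high line and 3901 in the low line, a difference of -0.57 that was not called (adjusted p = 0.232).

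Probe set 1 of the insulator cofactor gene shep had a CA difference of 1.67 (adjusted p = 2.17e-05) and was higher in C1 than in C2 (1.23, adjusted p = 0.0016). The pair C call was lost with only the 6 arrays of the pair (adjusted p = 0.061). In pair C, probe sets 2 and 3 gave -0.19 and -0.44, neither called. In CA they gave 0.31, not called, and 0.96 (adjusted p = 0.0162). The latter call was lost without CA high replicate 1 or 3 or CA low replicate 1 (adjusted p up to 0.122). Between H and L, probe set 2 of Mnn1, the menin gene, gave -1.41 (adjusted p = 0.02) while its probe set 1 gave -0.14. The probe set 2 call of Mnn1 was lost without H replicate 2 (-1.13, adjusted p = 0.108), L replicate 1 (0.0552) or L replicate 3 (0.0507).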
